A study of Oryza sativa Japonica Group with 18 samples.

Results

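The loss of GIGANTEA, the gene called GI here, was followed in rice through the transcripts whose level differed from wild type in root and in shoot alike. In the pho2 mutant these transcripts had to stay within a set limit of wild type, which does not mean that they were unchanged. A probe set is a group of short probes on an Affymetrix rice array that together give 1 signal for a transcript. A probe set was a member of this group if its mean log2(signal + 16) in the gi mutant was at least 0.7 above wild type in both tissues or at least 0.7 below in both. Its 3 gi arrays also had to lie fully apart from its 3 wild-type arrays in each tissue, its pho2 mean had to lie within 0.7 of wild type in each tissue, and its mean signal had to reach 100 in at least 1 group. Of 57258 probe sets that are not Affymetrix controls, 45 were members, of which 36 were raised in gi and 9 were lowered. The differences between each mutant and wild type within a tissue are the values that these probe sets were selected on, and they are given below as a description with no test.

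The 18 arrays, 3 in each of 6 groups, held root or shoot RNA of wild-type Nipponbare, a japonica cultivar that is the genetic background of all groups, of a knockout of OsGIGANTEA (gi) or of a knockout of OsPHO2 (pho2). All plants were 21 days old, with 2 days of germination in tap water and 19 days in hydroponic solution with sufficient phosphate, under 12 h of light a day at 30 °C by day and 22 °C by night. The labels give no hour of harvest, no allele and no number of independent lines for the knockouts, and do not say whether the 3 samples of a group came from separate plants, so that p-values measure no more than the spread of these arrays, and that spread may be technical. The title of the series joins PHO2 and GIGANTEA in flowering time and phosphate balance, and the comparison made here asks which transcripts moved with gi alone in both organs.

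GIGANTEA is a large plant protein of the circadian clock, the daily timekeeper of the cell, and in rice it acts in the photoperiodic control of flowering through Hd1. The core of the plant clock is a loop in which MYB factors of the LHY and CCA1 type, most abundant around dawn, and pseudo-response regulators of the TOC1 type, most abundant in the evening, repress each other's genes. GIGANTEA is itself an evening gene of this loop, and in Arabidopsis it is also linked to drought responses.

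Over all probe sets, the correlation between arrays of a group was at least 0.982 in root and at least 0.954 in shoot, and array medians lay between 52.5 and 70.3. Marker genes fitted the tissue labels: 9 of 10 root markers were brighter in wild-type root than in wild-type shoot, with NAAT1, a gene of phytosiderophore synthesis, as the exception, and 9 of 9 genes of green tissue were brighter in wild-type shoot. Hybridisation controls, which are spiked into each sample, differed by tissue: BioB-5 gave 25.5 to 66.3 on root arrays and 633 to 973 on shoot arrays. The gap went the same way but was much smaller in the controls other than BioB. BioC-5 gave 888 to 1130 on root arrays and 1497 to 2439 on shoot arrays, and CreX-5 13309 to 15131 and 18087 to 29828. Tissue and hybridisation therefore cannot be told apart where root and shoot levels are set side by side. In bulk tissue, fewer cells of a type and less RNA per cell cannot be told apart either.

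Raised in gi in both tissues were 202 probe sets before the signal minimum and the pho2 limit (0.353% of all), and lowered were 66 (0.115%). In 1 tissue at a time the same criteria held for 1208 raised (2.11%) and 696 lowered probe sets (1.22%) in root, and for 3304 raised (5.77%) and 1924 lowered probe sets (3.36%) in shoot. The signal minimum left 211 probe sets, 163 raised and 48 lowered, and the pho2 limit removed 166 of these. Most of what gi changed in both tissues was thus also at least 0.7 from wild type in pho2 in 1 or both tissues. The share of all probe sets that lay as far from wild type in pho2 is not given here. This count and those that follow are therefore a description and show no excess. In pho2, 89 of the 166 moved by 0.7 or more the same way as in gi in both tissues. Another 24 did so in root only and 49 in shoot only, and 4 moved the opposite way in 1 or both tissues. The gi and pho2 differences share the wild-type arrays, so an unusual wild-type level moves both. The limit also cuts through a continuum: 14 of the 45 members had a pho2 difference of 0.6 or more in at least 1 tissue, and 13 of the removed probe sets had none of 0.8 or more.

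Of the 45 members, 31 were paired with 1 gene in the tables used here, which came to 30 different genes, and 14 carried no gene. Of these genes 9 have a name, and 21 are known here by a locus number only. Lowered were GI, LHY, the cyclin-dependent kinase gene CDKE-1 and the heavy-metal transporter gene HMA2. Raised were the clock gene PRR1, the stress kinase gene SAPK9 and 3 genes for plastid proteins, PORA, PSB28 and DXPS. The median of the 36 raised members was 1.03 in root (range 0.71 to 3.36) and 0.97 in shoot (0.71 to 2.16), against medians of 0.03 in root and -0.01 in shoot over all probe sets tested. The 9 lowered members had medians of -1.09 in root and -1.05 in shoot. A difference of 1 or more in both tissues was reached by 9 raised and 3 lowered members. Among the member probe sets, 7 IDs end in _x_at, including those of LOC4350698 and LOC4324947, and 2 in _s_at, including that of SAPK9. Whether these probe sets also read other transcripts was not tested.

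**Figure D1:**
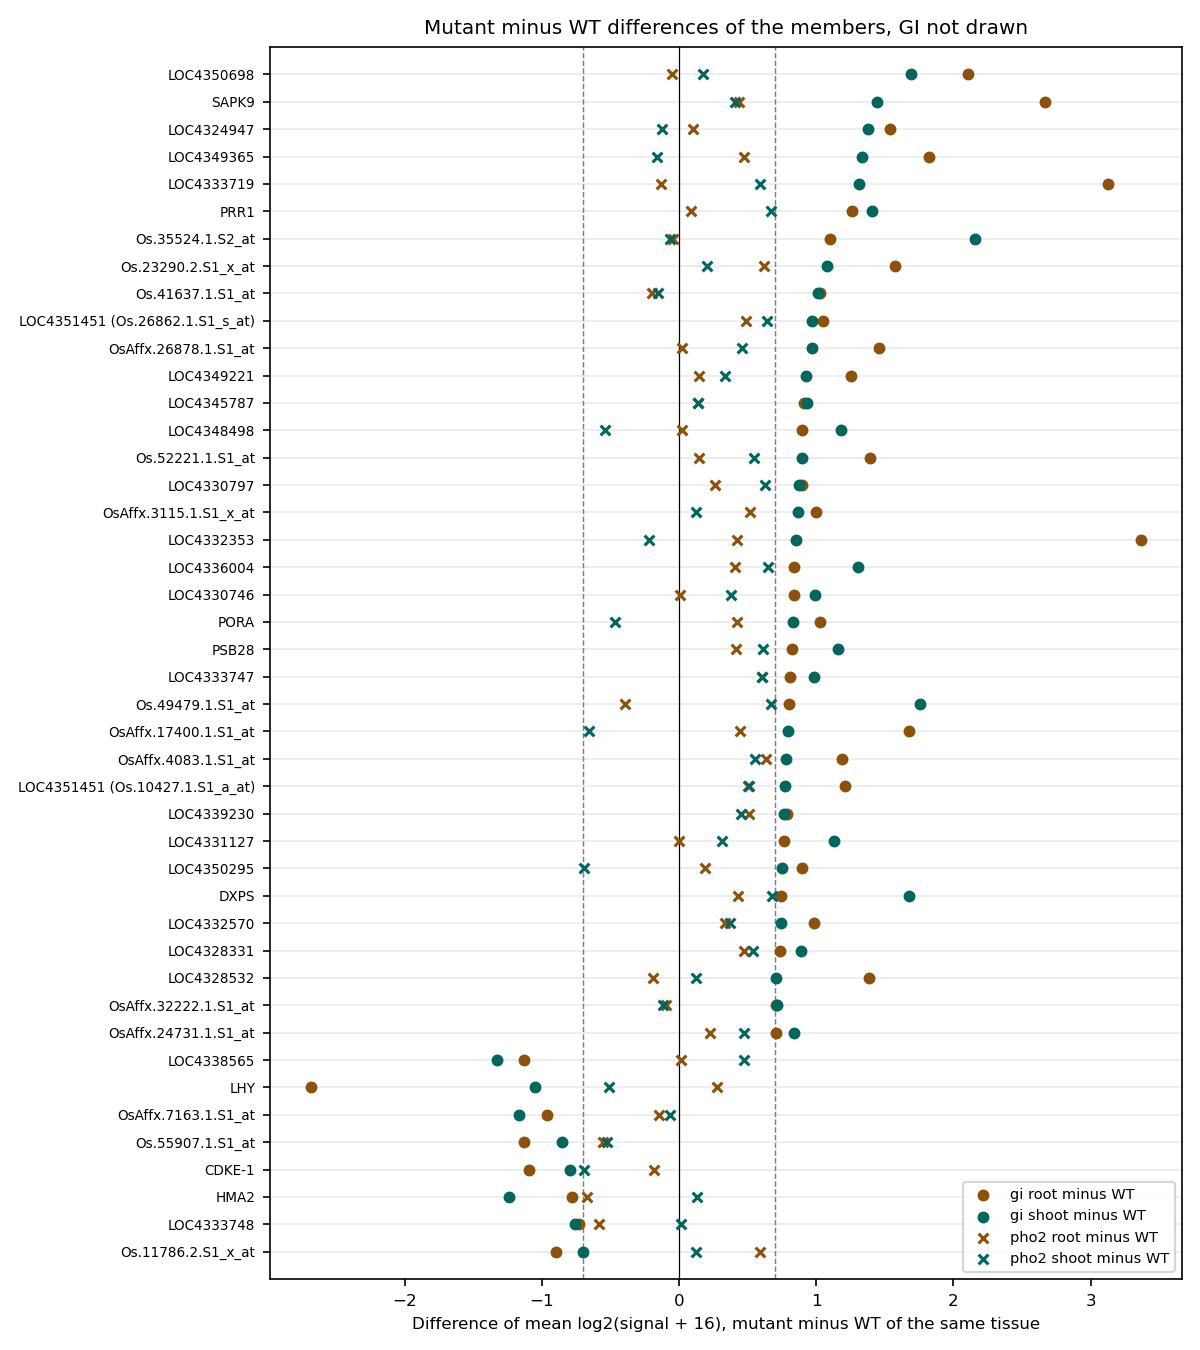
Each member apart from GI is 1 row, with filled circles for gi less wild type and crosses for pho2 less wild type, brown for root and green for shoot, as differences of mean log2(signal + 16) on the x axis; dashed lines mark -0.7 and 0.7. LHY reaches farthest to the left, at -2.68 in root, LOC4332353, LOC4333719 and SAPK9 reach farthest to the right in root, at 3.36, 3.13 and 2.67, and all crosses lie between the dashed lines by the rule.

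The targeted gene was checked first. GI gave signals of 7236, 7007 and 7393 on the wild-type root arrays and 1.36, 1.71 and 2.19 on the gi root arrays. In shoot it gave 11520.5, 9868 and 10889 in wild type and 44.6, 5.43 and 14.6 in gi. The highest of the 6 gi arrays was thus at 44.6 and the lowest of the 6 wild-type arrays at 7007. The pho2 mutant kept it, with 8200.0, 8030.1 and 7920.1 in root and 6835, 8088 and 7142 in shoot. Its pho2 shoot arrays were all below its wild-type shoot arrays, with a log2 difference of -0.55, within the limit of the rule. For GI the log2 difference was -8.67 (SE 0.0296, n = 3 and 3) in root and -8.30 (SE 0.44, n = 3 and 3) in shoot, sizes that the added 16 makes smaller.

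LHY, the dawn MYB factor of the rice clock, was the most lowered member after GI in root. Its signals were 3377, 3439 and 3080.0 in wild-type root and 523, 521 and 461 in gi root, with 3838, 4106 and 4019 in pho2 root. In shoot, where the gene is brighter, they were 12281, 12423 and 11616 in wild type, 5961, 5625 and 5961 in gi and 8372, 8997 and 8184 in pho2. The gi arrays lay below all wild-type and all pho2 arrays of their tissue. In gi LHY differed from wild type by -2.68 (SE 0.076, n = 3 and 3) in root and -1.05 (SE 0.041, n = 3 and 3) in shoot. Root kept 15.2% of the wild-type signal and shoot 48.3%, so the reduction was the deeper one in root. In pho2 the differences were 0.27 in root and -0.51 in shoot, on opposite sides of 0. Another probe set paired with LHY had a mean of 6.52 at most in any group, and therefore says nothing of a change.

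PRR1, a pseudo-response regulator and the rice counterpart of the Arabidopsis evening gene TOC1, was raised. It gave 503, 499 and 481 in wild-type root, 1169, 1174 and 1289 in gi root and 588, 489 and 505 in pho2 root. In shoot it gave 682, 748 and 681 in wild type, 1974, 1848 and 1839 in gi and 1222, 991 and 1186 in pho2. In root the pho2 arrays overlapped wild type, while in shoot all 3 lay above wild type and below gi. PRR1 differed by 1.26 (SE 0.0495, n = 3 and 3) in root and 1.40 (SE 0.054, n = 3 and 3) in shoot, nearly the same in both organs. The pho2 difference in shoot, 0.67, fell just inside the limit of 0.7.

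SAPK9 encodes a kinase of the SnRK2 family, enzymes that abscisic acid and osmotic stress activate in plant cells. In root its signals were 296, 319 and 260.2 in wild type, 1714, 1855 and 2285 in gi and 444, 406 and 354 in pho2. In shoot they were 191, 221 and 154 in wild type, 572, 527 and 512 in gi and 288, 192 and 293 in pho2. Every gi array lay above every wild-type and pho2 array of its tissue. The pho2 root arrays all lay above the wild-type root arrays, and the pho2 differences were 0.44 in root and 0.41 in shoot. The difference between gi and wild type was 2.67 (SE 0.15, n = 3 and 3) in root and 1.45 (SE 0.15, n = 3 and 3) in shoot.

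The genes for plastid proteins were raised in both organs from very different levels. PORA, protochlorophyllide oxidoreductase, carries out the step of chlorophyll synthesis that needs light. It gave 52.8, 43.2 and 43.1 in wild-type root and 111, 135 and 89.7 in gi root, against 1012, 1119 and 882 in wild-type shoot and 2075, 2033 and 1369.6 in gi shoot. Its pho2 root arrays, 26.9, 83.2 and 120.0, were spread across the wild-type and gi levels, and its pho2 shoot arrays, 491, 924 and 819, lay within or below the wild-type range. Between gi and wild type PORA differed by 1.02 (SE 0.17, n = 3 and 3) in root and 0.83 (SE 0.22, n = 3 and 3) in shoot.

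PSB28, a protein linked to the assembly of photosystem II, behaved alike in direction. It gave 57.0, 59.4 and 63.2 in wild-type root, 74.7, 146 and 148 in gi root and 67.3, 81.9 and 112 in pho2 root. In shoot it gave 3698, 3840.5 and 3574 in wild type, 9379, 9013 and 6741 in gi and 4851, 6487 and 5829.7 in pho2. In root pho2 overlapped gi, and in shoot the pho2 arrays were all above wild type, where the lowest gi array was not far above the highest pho2 array. For PSB28 the log2 difference was 0.82 (SE 0.28, n = 3 and 3) in root and 1.16 (SE 0.15, n = 3 and 3) in shoot.

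DXPS encodes 1-deoxy-D-xylulose 5-phosphate synthase, the entry enzyme of the plastid isoprenoid pathway that feeds carotenoids and the chlorophyll side chain. Unlike PORA and PSB28 it was brighter in root. It gave 257, 418 and 382 in wild-type root, 776, 450.2 and 588 in gi root and 466, 392 and 567 in pho2 root, so that pho2 overlapped both other genotypes. In shoot it gave 58.0, 52.4 and 59.6 in wild type, 204, 260.2 and 189 in gi and 167, 79.2 and 73.9 in pho2. The gi arrays stood apart from wild type in both organs, closely so in root. The difference of DXPS was 0.75 (SE 0.30, n = 3 and 3) in root and 1.68 (SE 0.14, n = 3 and 3) in shoot.

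**Figure D2:**
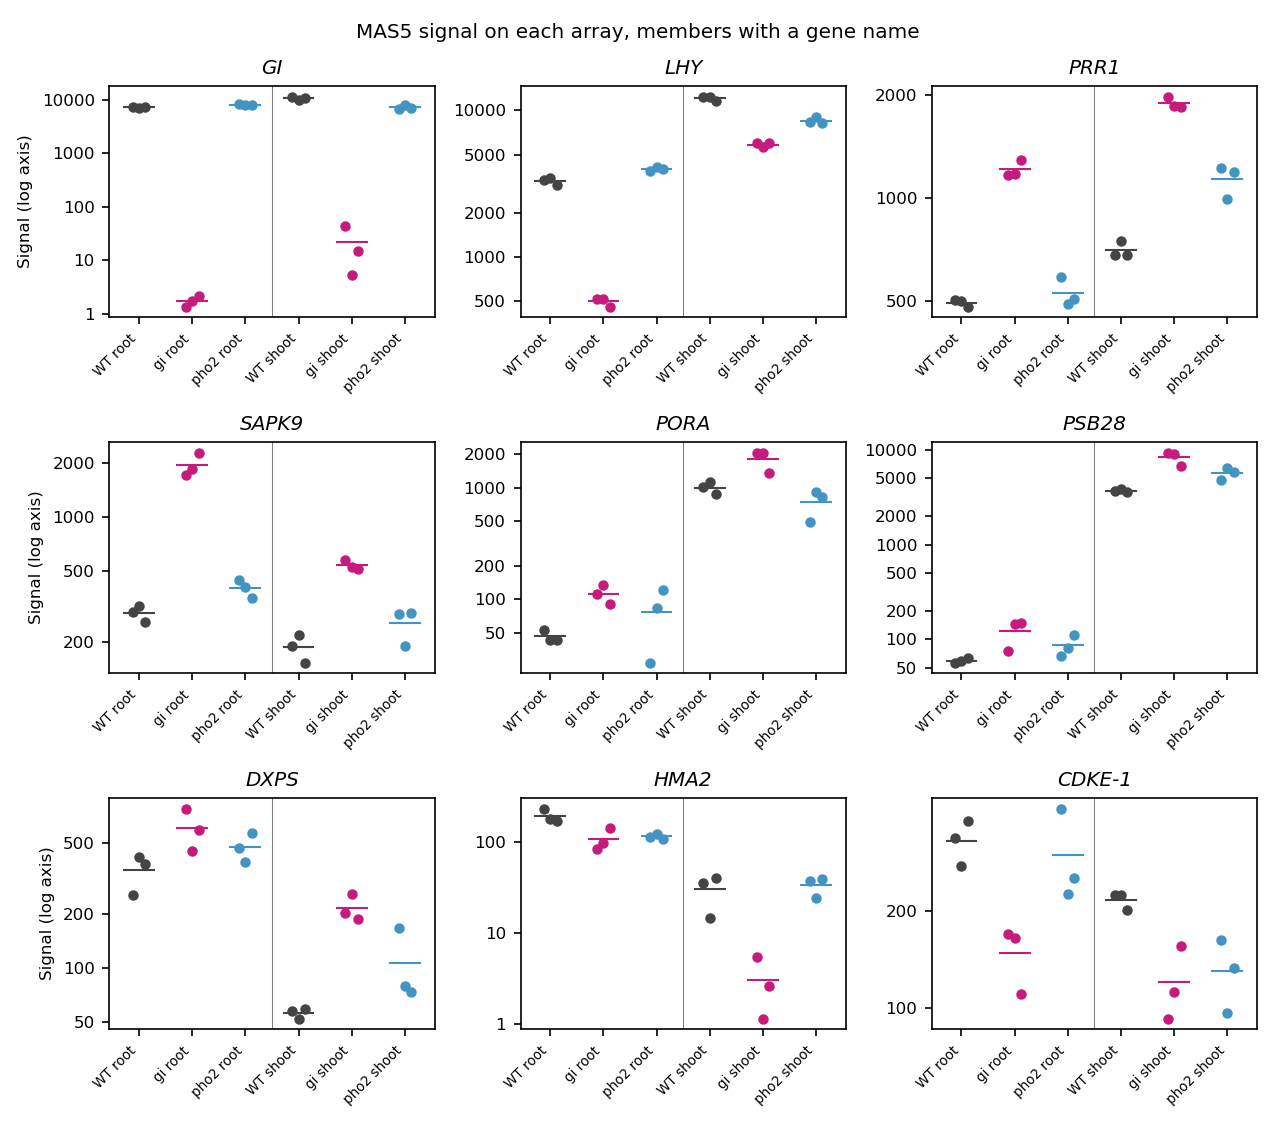
Signal on each of the 18 arrays for the 9 members with a gene name, on a log axis, with 1 point per array and a bar at the group mean of 3 arrays. The gi points of GI and LHY lie below the wild-type and pho2 points in both tissues, those of PRR1 and SAPK9 lie above them, and those of HMA2 in root and CDKE-1 in shoot overlap the pho2 points.

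HMA2 and CDKE-1 were the other lowered members with a gene name. HMA2, a heavy-metal ATPase that moves zinc and cadmium from root to shoot in rice, gave 232, 178 and 171 in wild-type root, 84.1, 98.3 and 140.4 in gi root and 113, 123 and 109 in pho2 root. Its shoot signals were dim, with 35.5, 14.8 and 40.4 in wild type, 5.43, 1.16 and 2.63 in gi and 37.2, 24.3 and 39.0 in pho2. In root the pho2 arrays lay inside the gi range, and the pho2 difference of -0.67 was near the limit. Against wild type, HMA2 in gi differed by -0.78 (SE 0.23, n = 3 and 3) in root and -1.24 (SE 0.29, n = 3 and 3) in shoot.

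CDKE-1, named for the cyclin-dependent kinase that in Arabidopsis belongs to the Mediator complex of transcription, gave 336, 275 and 382 in wild-type root, 169, 164 and 110.2 in gi root and 416, 225 and 252 in pho2 root. In shoot it gave 223, 224 and 200.5 in wild type, 92.4, 112 and 156 in gi and 162, 96.1 and 132 in pho2, where gi and pho2 overlapped. The gi difference was -1.09 (SE 0.22, n = 3 and 3) in root and -0.80 (SE 0.20, n = 3 and 3) in shoot. A brighter probe set of the same gene, with a mean of 1212 in wild-type root and 2338 in wild-type shoot, moved by only -0.05 in root and -0.44 in shoot. The 2 probe sets of CDKE-1 therefore disagreed in root.

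Among the genes known by locus number, the largest differences shared by both organs were those of LOC4350698. Its signals were 252, 251 and 338 in wild-type root, 1319.6, 1181 and 1246 in gi root and 259.9, 260.0 and 284 in pho2 root. In shoot they were 428, 411 and 427 in wild type, 1410.4, 1365 and 1418 in gi and 492, 436 and 511 in pho2. The gi arrays stood far above both other genotypes, which lay close together. In gi the mean signal was 4.45 times that of wild type in root and 3.31 times in shoot, beside log2 pho2 differences of -0.05 and 0.17.

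LOC4332353 and LOC4333719 were bright in shoot and low in root of wild type, and in gi root they differed from wild type by more than any other raised member. LOC4332353 gave 147, 209 and 217 in wild-type root, 2031, 1997 and 2242 in gi root and 197, 277 and 316 in pho2 root. In shoot it gave 9912, 8368 and 7678 in wild type and 16038, 15502 and 15146 in gi. The differences were 3.36 (SE 0.17, n = 3 and 3) in root and 0.85 (SE 0.11, n = 3 and 3) in shoot, and the gi root signal came to 24.2% of the wild-type shoot signal. LOC4333719 gave 24.5, 20.3 and 34.8 in wild-type root and 269, 363 and 445 in gi root, and 3824, 4638 and 3706 in wild-type shoot and 10737, 9991 and 9483 in gi shoot. Its differences were 3.13 (SE 0.25, n = 3 and 3) in root and 1.31 (SE 0.11, n = 3 and 3) in shoot. Another probe set of LOC4333719, not a member, moved the same way, by 1.18 in root and 2.29 in shoot.

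LOC4324947 was raised by similar amounts in both organs, and LOC4349365 by more in root. LOC4324947 went from 275, 376 and 244 to 812, 788 and 1083 in root and from 384, 466 and 380.1 to 902, 1169 and 1210.3 in shoot, which gave differences of 1.54 and 1.38. Another probe set of LOC4324947 moved by less, 0.75 in root and 0.25 in shoot. LOC4349365 went from 659, 665 and 521 to 2095, 1929 and 2643 in root and from 356, 344 and 304 to 755, 1146 and 753 in shoot, with differences of 1.82 and 1.34. The unnamed member Os.23290.2.S1_x_at, at 1.57 and 1.08, shares the cluster number in its ID with the probe set of LOC4349365, so both may read the same transcripts and are not counted as independent. Of the members without a gene, Os.35524.1.S2_at differed most in shoot. It went from 402, 313 and 439 to 784, 750.5 and 994 in root and from 109, 160.0 and 142 to 461, 720.3 and 863 in shoot.

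Of the other lowered members, LOC4338565 gave 134, 129 and 134 in wild-type root and 32.6, 48.7 and 84.0 in gi root, and 57.7, 59.9 and 41.4 in wild-type shoot and 14.5, 10.6 and 9.19 in gi shoot. Its differences were -1.13 (SE 0.30, n = 3 and 3) and -1.32 (SE 0.15, n = 3 and 3), with pho2 at 0.01 in root and 0.48 in shoot. OsAffx.7163.1.S1_at had log2 differences of -0.96 in root and -1.17 in shoot. Os.55907.1.S1_at, bright in root only, gave 2326, 2401 and 1805 in wild-type root and 1106, 864 and 979.8 in gi root, with differences of -1.13 in root and -0.85 in shoot. Its shoot signals, 32.5, 25.3 and 42.1 in wild type, were dim.

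Positions on the genome were read for the members paired with a gene, and the 14 without a gene have no position here. How many close pairs such a number of genes would make anyway was not computed. The 30 genes made 39 pairs on a shared chromosome in the RefSeq gene table of assembly ASM3414082v1, and 1 of these pairs lay within 10 genes of each other. These were LOC4333747 and LOC4333748, with 0 annotated genes between them, and they moved in opposite directions. LOC4333747 was raised, from 20.7, 31.7 and 11.9 to 38.9, 40.4 and 69.1 in root and from 114, 180.3 and 213 to 359, 349.5 and 312 in shoot. LOC4333748 was lowered, from 1399, 1410.2 and 1392 to 741, 891 and 888 in root and from 453, 381 and 455 to 232, 301 and 217 in shoot. Around GI itself, 10 genes within 10 positions had 11 probe sets, and 1 of these differed by 0.7 or more from wild type in a tissue, LOC4325335 with 0.71 in gi shoot. Over all probe sets, 5.77% were raised and 3.36% lowered by that much in gi shoot with arrays fully apart, a stricter criterion.

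The size of the gi difference varied between the organs. Among the raised members 22 differed more in root and 14 more in shoot, and in 19 the 2 organs were within 0.35 of each other. LOC4332353, LOC4333719 and SAPK9 exceeded their shoot difference in root by 2.51, 1.81 and 1.22 on the log2 scale. Os.35524.1.S2_at, Os.49479.1.S1_at and DXPS were the raised members that leaned most to shoot, with -1.05, -0.96 and -0.93 for root less shoot. Among the lowered members LHY leaned most to root, with -1.63 for root less shoot, the deeper reduction being in root. The spread within a group was large for Os.41637.1.S1_at, whose gi root arrays gave 2883, 1142 and 811 against 691, 672 and 658 in wild type, with 1 gi array far above the other two and a root difference of 1.03.

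**Figure D3:**
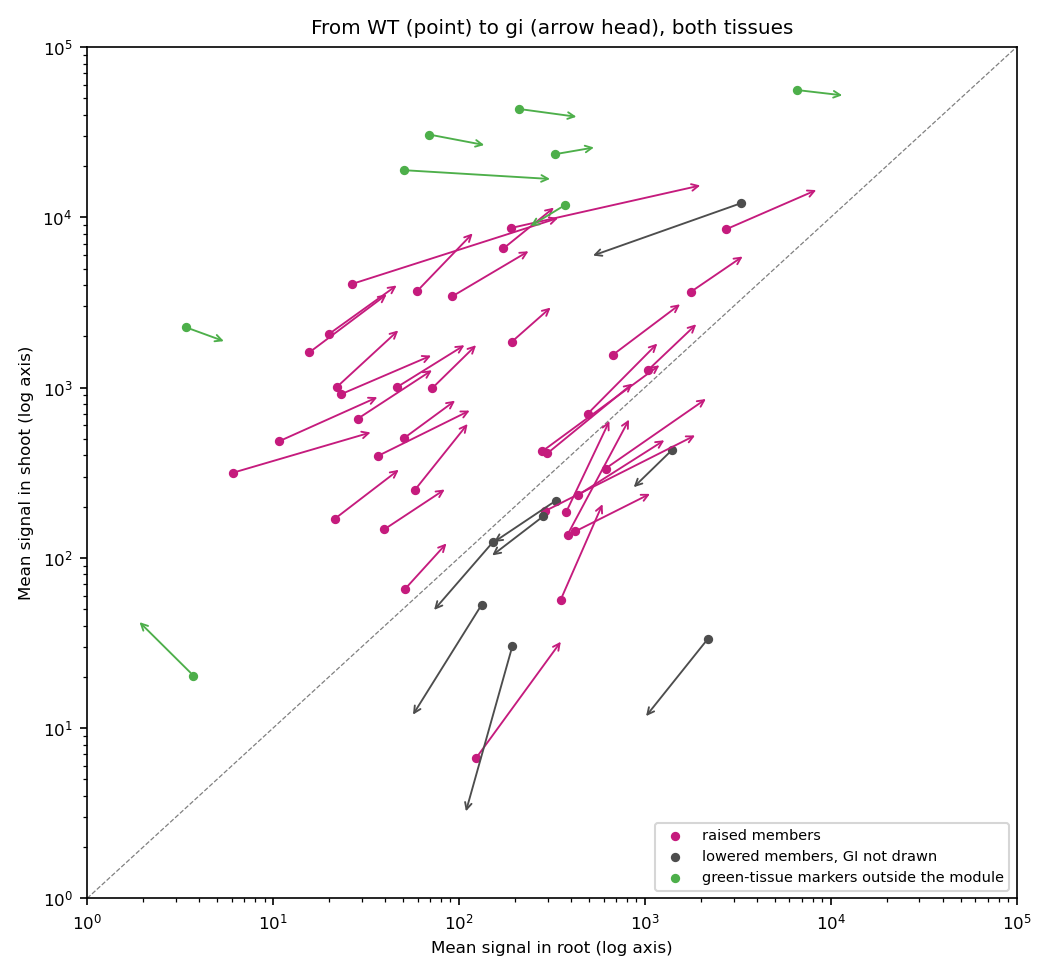
Mean signal in root on the x axis and in shoot on the y axis, both log axes, with a point for the wild-type mean and an arrow head at the gi mean (3 arrays each) for raised members, lowered members apart from GI, and 8 green-tissue markers outside the group; the dashed line marks equal signal in both tissues. The arrows of raised members point up and to the right by the rule, while those of 6 of the 8 markers point to the right and those of 2 of the 8 point up.

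How the pho2 mutant stood for the same members was fixed in part by the limit of 0.7. Raised members had a median pho2 difference of 0.25 in root (range -0.39 to 0.64) and 0.38 in shoot (-0.69 to 0.68), and lowered members of -0.15 in root (-0.67 to 0.59) and -0.07 in shoot (-0.69 to 0.48). Above 0 in pho2 root were 28 raised members, with 8 below, and in pho2 shoot 26, with 10 below. Among raised members the pho2 difference was 0.35 or more, the same way as in gi, in 16 in root and in 19 in shoot. In 9 raised members both pho2 differences were within 0.35 of wild type. Among them were LOC4350698, with -0.05 in root and 0.17 in shoot, LOC4345787, with 0.14 in both, and Os.35524.1.S2_at, with -0.05 and -0.06, which were picked out after their values were seen. The gi and pho2 values come from comparisons that share their wild-type arrays.

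**Figure D4:**
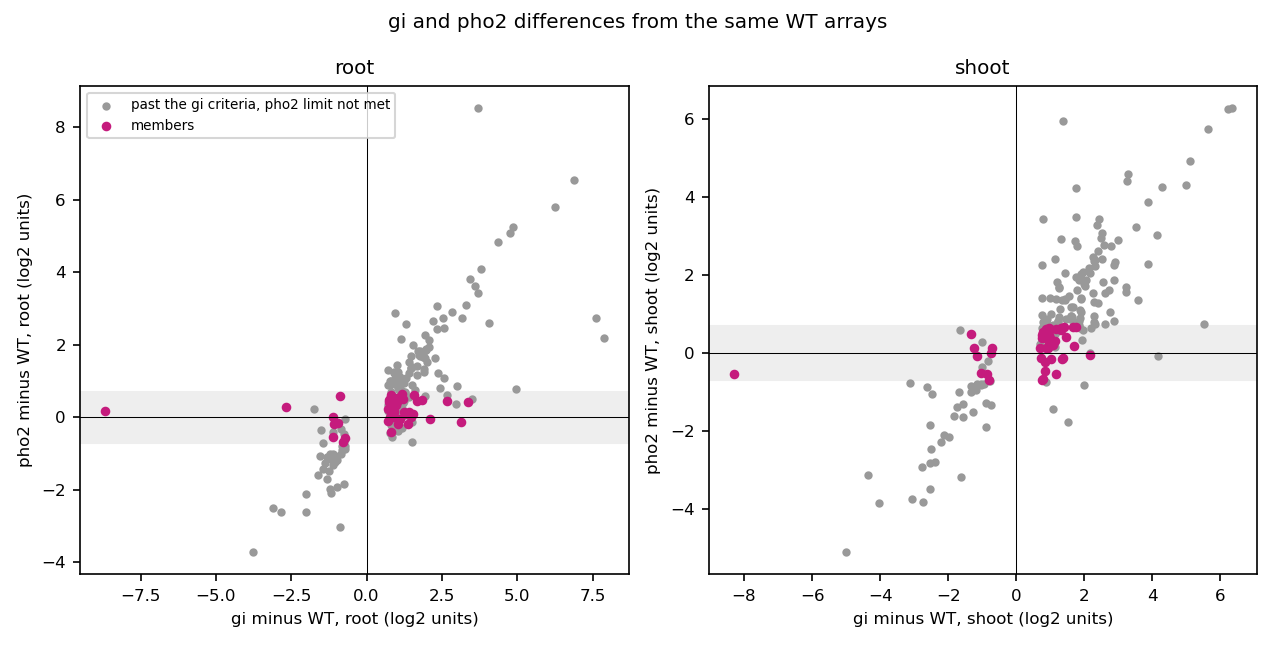
Log2 difference of gi from wild type on the x axis and of pho2 from the same wild-type arrays on the y axis, in root and in shoot, for the members and, in grey, for the 166 probe sets that passed the gi criteria and the signal minimum but not the pho2 limit; the shaded band marks pho2 differences within 0.7. Members lie inside the band by the rule, with GI at the far left, and grey points reach farther from 0 than any member but GI on the x axis and than all members on the y axis.

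Root and shoot were next compared within wild type and within pho2, contrasts that the rule did not use, in a limma fit of all 18 arrays with p-values adjusted over all 34355 probe sets tested. All members passed the filter on low signal, but 11 raised members reached the signal minimum of 100 in shoot groups only, and 1 raised and 3 lowered members in root groups only. Such members were admitted through the tissue in which they are bright, so the counts that follow describe the group and support no tissue preference. In wild type 71% of all probe sets were called at an adjusted p under 0.05, 39.1% higher in root and 31.8% higher in shoot. Of the 36 raised members 27 were higher in shoot, 8 higher in root and 1 was not called, with a median root less shoot difference of -2.07 against 0.09 over all probe sets. Among all probe sets that reached a signal of 100 in a group, 78.8% were called, 34.7% higher in shoot and 44.1% higher in root. Of the 127 probe sets that gi raised in both tissues but that the pho2 limit removed, 56 were higher in wild-type shoot, 25 higher in wild-type root and 46 were not called, with a median of -0.36. The shares of these sets were not tested against each other. Of the 24 raised members that reached a signal of 100 in both tissues, 17 had a higher wild-type mean in shoot and 7 in root.

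In the pho2 arrays 66.7% of all probe sets were called, 38% higher in root and 28.8% higher in shoot, and among those with a signal of 100 in a group 74.8%, 42.9% and 31.9%. There 26 raised members were higher in shoot and 7 higher in root, with a median of -2.19, while of the 127 removed probe sets 66 were higher in shoot and 27 higher in root, with a median of -0.65. Of the 9 lowered members 6 were higher in root in both genotypes, and 2 were higher in shoot in wild type and 1 in pho2. Likeness of the 2 genotypes in these members follows largely from the pho2 limit and lends no added support. On the shoot side in wild type were LOC4333719, with a mean of 26.6 ± 7.44 (SD, n = 3) in root and 4056 ± 508 in shoot, LOC4330746, with 19.9 ± 5.37 and 2056 ± 74.4, and LOC4348498, with 15.7 ± 5.54 and 1607 ± 245. Their root means lie near the added 16, and LOC4330746 and LOC4348498 stayed under 100 in every root group, so the size of their log2 differences has no order. PSB28, at 59.9 ± 3.14 in root and 3704 ± 133 in shoot, reached 100 in both tissues through gi root, with a root less shoot difference of -5.62 (SE 0.20, limma adjusted p 7.44e-14). On the root side, Os.55907.1.S1_at had 2177 ± 324 in root and 33.3 ± 8.43 in shoot, OsAffx.26878.1.S1_at had 124 ± 35.4 and 6.66 ± 2.58, and HMA2 had 194 ± 33.1 and 30.2 ± 13.6. All 3 stayed under 100 in every shoot group. DXPS, which reached 100 in both tissues, had 353 ± 84.4 in root and 56.6 ± 3.79 in shoot, a difference of 2.32 (SE 0.26, limma adjusted p 3.75e-07). These 8 members were picked as the most biased to either tissue in wild type. That their 3 wild-type root arrays were fully apart from the 3 wild-type shoot arrays therefore follows largely from the choice. The same holds for the small limma adjusted p-values of PSB28 and DXPS, which lend no added support.

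Because many raised members were brighter in shoot, genes of green tissue outside the group were read beside them. Of 8 such genes, 6 were higher in gi root than in wild-type root and 5 were higher by 0.7 or more, with a median difference of 0.79. Over all probe sets the median was 0.03. There 2.11% were higher in gi root by 0.7 or more with arrays fully apart, a stricter criterion. GLO1, glycolate oxidase of photorespiration, went from a mean of 50.5 ± 32.3 (SD, n = 3) to 325 ± 257 and in pho2 root to 290 ± 155. RBCS, the small subunit of Rubisco, went from 69.4 ± 10.6 to 144 ± 31.4 in gi root, and CAB2R, a chlorophyll-binding protein, from 6607 ± 454 to 12137 ± 2545. PSAG, a photosystem I subunit, was lower, with 371 ± 63.1 in wild-type root and 232 ± 18.6 in gi root. In pho2 root 7 of the 8 were higher than in wild type, 1 of them by 0.7 or more, with a median of 0.32. In gi shoot 2 of the 8 were higher than in wild type, with a median of -0.17, on the other side of 0 from the raised members, which the rule places above 0. These marker differences were not tested.

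The summed signal of 9 green-tissue genes, PORA included, was 7240 to 7976 on wild-type root arrays, 11503 to 17193 on gi root arrays and 7270 to 13799 on pho2 root arrays, against 168893 to 202248 on wild-type shoot arrays. In root most of this sum is CAB2R, with means of 6607 in wild type and 12137 in gi, so the sum describes mainly that gene. None of the 9 had a mean of 0 in any group. The summed signal of 10 root markers was 38891 to 43860 in wild-type root and 40661 to 43825 in gi root, ranges that overlapped. Single root markers still differed between gi and wild-type root, with IRT1 at 1.48 and LSI6 at -0.80. For the 8 green-tissue markers, the gi root less wild-type root difference came to between -9.26% and 9.90% of their wild-type shoot level. The median was 0.40%. The low end is RBCS1, which was dim in every group, with 3.73 ± 4.94 in wild-type root, 1.84 ± 0.74 in gi root and 20.4 ± 17.0 in wild-type shoot, and which is 1 of the 2 markers that were higher in gi shoot. For the 18 raised members that were at least 5 times brighter in wild-type shoot than in wild-type root, the same difference was 1.38% to 22.0% of the wild-type shoot level, with a median of 6.13%. These members were selected for a rise in gi root and the markers were not. The 2 sets of percentages are therefore not comparable. The part that green-tissue RNA has in the root values of these members was not tested. The other 18 raised members, which were less than 5 times brighter in shoot or brighter in root, had a median gi difference of 1.18 in root and 1.19 in shoot.

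Other genes of the pathways were then tested for gi against wild type, without the members, in limma fits of the 9 arrays of a tissue. In root 2.28% of all tested probe sets were called, 1.17% higher and 1.11% lower in gi, and in shoot 17.5%, 8.98% higher and 8.56% lower. Of 17 tested clock and photoperiod genes, 2 rose and 0 fell in root, with a list median of 0.13 against 0.03 over all probe sets, and 1 rose and 3 fell in shoot, with a median of -0.17 against -0.01. PRR95, a pseudo-response regulator of the same family as PRR1, rose in both organs. Its mean was 1477 ± 114 (SD, n = 3) in wild-type root and 3737 ± 475 in gi root, and 16811 ± 997 in wild-type shoot and 24630 ± 876 in gi shoot. The rise was 1.32 on the log2 scale in root (SE 0.096, limma adjusted p 6.62e-05) and 0.55 in shoot (SE 0.079, limma adjusted p 0.000568). The relatives PRR37 and PRR73 were not called, at 0.23 and -0.10 in root and -0.17 and -0.24 in shoot.

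Among flowering genes, MADS56, a MADS-box factor of the SOC1 type, rose in root and fell in shoot. It went from 564 ± 78.5 to 994 ± 134 in root (0.80, SE 0.13, limma adjusted p 0.0117) and from 3577 ± 232 to 2970 ± 211 in shoot (-0.27, SE 0.082, limma adjusted p 0.0427). The root call was lost without wild-type root array 1, with gi root array 2 left out and under median centring, where the adjusted p reached 0.0553 at most, and the shoot call was lost under 9 of 16 alternatives, up to 0.173. MADS18, a MADS-box factor of the FUL type, fell in shoot by 0.66 (SE 0.18, limma adjusted p 0.0236), a call lost under 4 of 16 alternatives. SE5, the haem oxygenase that makes the phytochrome chromophore precursor in rice, fell in shoot by 0.37 (SE 0.066, limma adjusted p 0.00218). HD1, the main target of GI in flowering, was dim, with a mean of 32.3 in wild-type root and 52.8 in wild-type shoot, and was not called. The count in shoot was 2 without wild-type shoot array 1 and 2 without gi shoot array 3.

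Of the relatives of SAPK9 and of abscisic acid genes, 18 were tested in root and 19 in shoot. In root 1 rose and 0 fell, with a list median of 0.05. This was SAPK1, which rose by 0.62 (SE 0.11, limma adjusted p 0.0191) from 831 ± 78.6 to 1290 ± 137. That call was lost under 5 of 16 alternatives, with 0 genes called without gi root array 1 or 2, without wild-type root array 1 or 2, or under median centring. In shoot 5 rose and 1 fell, with a list median of -0.03, and in the fit of all 18 arrays 4 rose and 3 fell. SAPK7, another SnRK2 kinase, rose by 1.42 (SE 0.19, limma adjusted p 0.000302), from 99.4 ± 22.1 to 290 ± 9.94, while in root it was at 1228 and 1132 and not called.

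PP2C30, a clade A protein phosphatase that holds SnRK2 kinases inactive, rose by 1.57 in shoot (SE 0.27, limma adjusted p 0.00164). ABA8OX2, which breaks down abscisic acid, rose by 0.92 (SE 0.083, limma adjusted p 2.47e-05). PYL5, an abscisic acid receptor, fell by 0.42 (SE 0.075, limma adjusted p 0.00219). The dehydrin gene RAB16C and the bZIP factor gene ABF2 were the other 2 that rose in shoot, by 1.20 and 0.46, and their calls were lost under 1 and 4 of 16 alternatives. Of the 8 other SnRK2 genes tested in shoot beside SAPK7, none was called by limma at an adjusted p under 0.05, and SAPK1, SAPK2 and SAPK3 passed at an unadjusted p under 0.05, all lower in gi. SAPK9 was selected for being raised in both organs and was left out of this list, so it cannot be set against its relatives. Of those relatives, SAPK1 and SAPK7 were called in 1 organ each.

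Phosphate genes were read because of the link that the title of the series makes. In root limma called 0 of 18, with 1 higher and 3 lower at an unadjusted p under 0.05 and a list median of -0.08. In shoot 0 of 14 rose and 4 fell, with a list median of -0.09 against -0.01 over all probe sets. The fall was 0.54 for the phosphate transporter gene PHT1;1 (SE 0.16, limma adjusted p 0.0360), 0.45 for SPX1 (SE 0.12, limma adjusted p 0.0194) and 0.46 for SPX4 (SE 0.11, limma adjusted p 0.0126), both sensors of inositol phosphates that restrain the PHR factors. PHO1;3, of the family of phosphate exporters, fell by 0.64 (SE 0.15, limma adjusted p 0.0115). These calls were lost under 7 of 16 alternatives for PHT1;1, 5 for SPX1, 2 for PHO1;3 and 1 for SPX4. The count was 1 without wild-type shoot array 1 and 1 without wild-type shoot array 3. In the fit of all 18 arrays 1 rose and 2 fell, and 1 rose and 3 fell without wild-type shoot array 2 or with the probe set of smallest p per gene.

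The 3 members nearest inside the threshold of 0.7 were Os.11786.2.S1_x_at, with -0.90 in root and -0.70 in shoot, OsAffx.24731.1.S1_at, with 0.70 and 0.84, and OsAffx.32222.1.S1_at, with 0.71 in both. Nearest outside were OsAffx.1248.1.S1_at (0.86 and 0.70, just under the threshold), Os.7559.1.S1_at (0.70, just under, and 0.83) and LOC4327722 (0.94 and 0.69). For genes with further probe sets the choice of probe set mattered too. LOC4328532 moved by 1.38 in root and 0.71 in shoot in the member and by 1.52 and 0.06 in another probe set. LOC4351451 had 2 member probe sets and another that moved by 0.27 in root and 1.16 in shoot, and LOC4350295 had a member at 0.90 and 0.75 beside others at 0.74 and 0.34 and at 0.61 and -0.12.

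**Figure D5:**
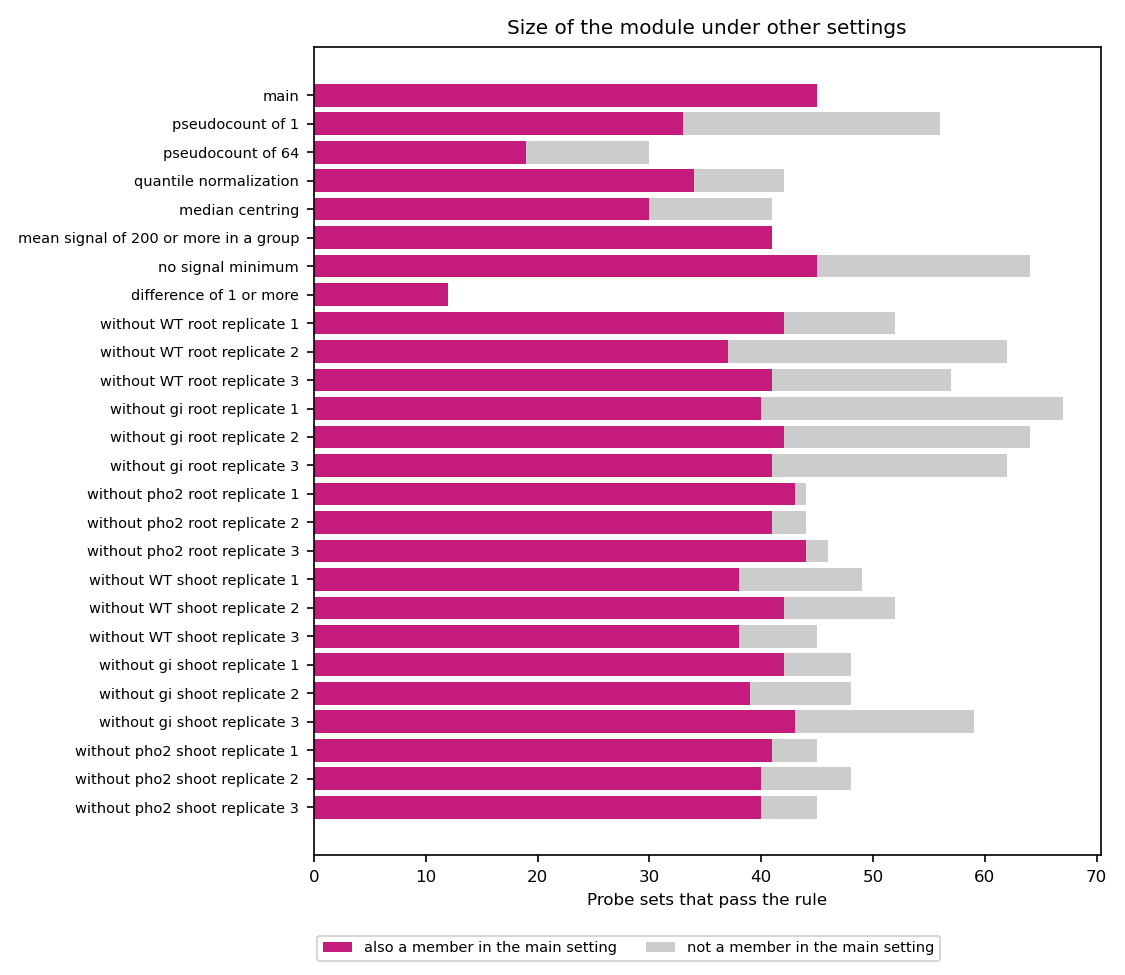
Number of probe sets that passed the rule (x axis) under each setting (rows), with those that were also members in the main setting in colour and the rest in grey; the setting with no pho2 limit is not drawn. The number ranges from 12 with a difference of 1 or more to 67 without gi root array 1.

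Which members were kept depended on scaling and on single arrays. Under 4 other scalings and with each of the 18 arrays left out in turn, 22 alternatives in all, 13 of the 45 members were kept every time. These were GI and LHY of the lowered and 11 raised members, among them SAPK9, LOC4350698, LOC4324947, LOC4349365, LOC4333719, LOC4332353 and LOC4349221. PRR1 was kept under 4 of 4 scalings and with 16 of 18 arrays left out, its pho2 shoot difference being near the limit. PORA and PSB28 were kept under 3 of 4 scalings. CDKE-1, HMA2, DXPS and LOC4350295 were kept under 0 of 4.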

How the data were processed

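Transcript levels were measured on 18 Affymetrix rice arrays, 3 in each of 6 groups, and sample titles gave the groups and replicate numbers. Biotin-labelled cRNA was made from total RNA, per the labels' protocols. Each deposited value is the intensity of a probe set on an array, on a linear scale, which the authors made with MAS5, per the submitters' processing notes. The sources used here give no version or settings of MAS5. On the deposited values, the mean of every array after trimming 2% at each end was close to 500. No 2 arrays were identical, with 0 such pairs of 153, and 0 columns of sample values were left unused. Detection calls were not used here. Precision is limited by the number of arrays.

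Of 57381 probe sets, 123 controls were left out. Values were used as log2(signal + 16). Tests used limma 3.58.1 under R 4.3.3 (lmFit, then eBayes with a trend on intensity), after leaving out probe sets below the 40th percentile of the mean, which left 34355. They were two-sided with Benjamini-Hochberg adjustment over all of these and a threshold of 0.05. Root against shoot used all 18 arrays with 6 group means, and gi against wild type for gene lists used the 9 arrays of a tissue with 3 group means. The procedure was tested on simulated data.

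Probe sets were named through the platform annotation and the RefSeq gene table of assembly ASM3414082v1, and 22436 had 1 gene. Of the symbols on the lists, 21 of 47 clock and photoperiod genes, 22 of 48 SnRK2 and abscisic acid genes and 21 of 52 phosphate genes were found, the brightest probe set was used per gene, and members were taken out of each list. Of the markers, 10 of 15 root genes and 9 of 24 green-tissue genes were found, each read from its brightest probe set in wild type of its tissue. The members and the lists were chosen with earlier results of these data known. Named are GI, every member with a gene name, the members with the largest difference shared by both tissues, those at the threshold, those most biased to a tissue, neighbours, genes with disagreeing probe sets and called genes of each list.

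Alternatives tried were pseudocounts of 1 and 64, quantile normalization, median centring, other filters, signal minimums and thresholds, array weights, other sets of arrays in the fit, a replicate block and each array left out in turn. Same-numbered arrays did not deviate together: the correlation of their deviations from the group means ranged from -0.10 to 0.07 over 12 pairs, with 0 over 0.1, so the numbers were not taken to pair the samples. A search of promoters was not made, since no promoter sequence was used here.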

Additional observations from a re-analysis of the deposited data

Results flagged for a closer look

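For 15 listed genes called in root or shoot, the gi difference in root less that in shoot was tested in a limma fit of all 18 arrays, and 8 of the 15 were called. Over all tested probe sets 12.2% were called, but the 15 genes had been selected as called in gi against wild type, most in 1 tissue, so the 2 shares are not comparable. Of the clock and flowering genes, PRR95 was raised more in root, by 0.77 (limma adjusted p 0.000638), MADS18 differed by 1.50 (0.00392), MADS56 by 1.07 (0.000350) and SE5 by 0.47 (0.0133). Of the kinases, SAPK1 leaned to root by 0.87 (0.00119) and SAPK7 to shoot, with -1.54 (5.55e-05). Of the phosphate genes, PHT1;1 differed by 0.73 (0.0192) and SPX4 by 0.46 (0.0436). These genes were flagged because the change with gi differed between the 2 tissues, and, PRR95 apart, each of them was called in gi against wild type in 1 tissue or with opposite signs in both. Hybridisation controls differ between the tissues, as given above, and their part in these differences was not tested.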

How the results depend on the processing

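Of the counts recomputed under alternatives, 144 stayed within 1.5 times the count given and 14 moved. The number of members was 12 with a difference of 1 or more (9 raised, 3 lowered) and 211 with no limit on pho2 (163 raised, 48 lowered). Other settings gave 56 members with a pseudocount of 1 (33 of them among the 45), 30 with 64 (19), 42 with quantile normalization (34), 41 with median centring (30), 41 with a signal minimum of 200 and 64 with none, and leaving out 1 array gave 44 to 67. Median centring left 1 clock gene and 0 SnRK2 and abscisic acid genes called in root. With 1 array left out, clock genes called were 1 to 3 in root and 2 to 4 in shoot, SnRK2 and abscisic acid genes 0 to 1 in root, and phosphate genes 1 to 4 in shoot. Median centring moved the median gi difference of all probe sets from 0.03 to -0.07 in root and from -0.01 to -0.12 in shoot, and the share of calls that were higher in gi from 51.3% to 33.4% in root and from 51.2% to 40.5% in shoot; in the fit of all 18 arrays the root share was 64.3%. With the replicate number as a block, calls fell from 782 to 649 in root and from 6027 to 5399 in shoot, and the block gave 43 members called between tissues in wild type and 39 in pho2, with 2, 1 and 0 listed clock, SnRK2 and phosphate genes in root and 3, 6 and 3 in shoot. Median centring thus turned the sign of the root median and the balance of root calls. Quantile normalization did so too, with a root median of -0.0028 and 46.1% of root calls higher. The balance of root calls also turned with the filter at the 60th percentile (48.9% higher) and without gi root array 2 (49.2%) or 3 (45.5%). In the other settings more root calls were higher than lower. Of 540 recomputed differences of named members, 0 changed sign and 45 moved by more than the replicate spread, 20 of them with a pseudocount of 64, 15 with 1, and 0 on leaving out an array. The cause of these shifts was not tested. Signals near the added 16 limit what can be said of dim members.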
